A study of Mus musculus with 48 samples.

Results

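The genes described here are the Iroquois genes Irx1, Irx2, Irx3, Irx5 and Irx6 and the Zic genes Zic1, Zic2, Zic4 and Zic5, chosen by name, and all 9 were found among the 16510 genes of the deposited count table. They were measured by droplet single-cell RNA-seq (ddSEQ, a 3′ method that counts molecules by a unique molecular identifier, UMI) in the hypothalamus of mouse embryos at E18.5, late gestation. Control embryos were Eed fl/fl, that is, homozygous for an Eed allele with loxP sites around part of the gene. Eed-cKO embryos were Eed fl/fl; Sox1-Cre/+, so both groups carried the floxed allele and differed by the Cre, which acts in neural cells of the central nervous system and not in those of blood vessels, meninges or microglia. Eed is a core subunit of Polycomb repressive complex 2 (PRC2), which places the repressive H3K27me3 mark. The 48 libraries came from 6 control embryos (22 libraries) and 9 Eed-cKO embryos (26 libraries) of both sexes on a mixed B6:129S1 background, and values were summed over all cells of an embryo, the unit of replication. No litter held embryos of both groups, so litter and genotype cannot be told apart.

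Irx genes encode homeodomain proteins of the TALE class that set regional identity along the neural tube and, in the diencephalon, mark its caudal part, which includes the thalamus. Zic genes encode zinc finger proteins related to Gli that act in the dorsal neural tube and its midline, where they keep progenitors dividing and take part in forebrain and cerebellar development. Both families lie in clusters of neighbouring genes, and promoters of such regulators are usually rich in CpG dinucleotides and carry H3K27me3 in tissues that do not use them.

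On mm10 the 9 genes lay at 4 loci. Irx1 (chr13:71957921-71963723, minus strand) and Irx2 (chr13:72628820-72634198, plus strand) started 665097 bases apart, head to head. Irx3 (chr8:91798525-91802067, minus), Irx5 (chr8:92357625-92376286, plus) and Irx6 (chr8:92674288-92680956, plus) formed the other Iroquois cluster. Zic1 (chr9:91358058-91365810, minus) and Zic4 (chr9:91362413-91389348, plus) started 3397 bases apart and their exons overlapped on opposite strands, so UMIs of these 2 genes could be assigned to either where strand was not used in counting. Zic5 (chr14:122456795-122465677, minus) and Zic2 (chr14:122475435-122479852, plus) started 9758 bases apart, head to head.

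RefSeq promoter sequences on GRCm38.p6 were given for 5 of the 9 genes, and 3 are shown because the text turns on Zic1 and Zic4, which share a locus, and on Irx2. Each runs 5′ to 3′ over the 250 bases before the RefSeq start, with CpG dinucleotides in capitals. RefSeq starts differed from the GENCODE ends given above: the Zic4 and Irx3 windows lay wholly inside the GENCODE genes, those of Zic1 and Zic5 overlapped them, and that of Irx2 ended just before its gene.
Zic1, chr9:91365769-91366018, minus strand: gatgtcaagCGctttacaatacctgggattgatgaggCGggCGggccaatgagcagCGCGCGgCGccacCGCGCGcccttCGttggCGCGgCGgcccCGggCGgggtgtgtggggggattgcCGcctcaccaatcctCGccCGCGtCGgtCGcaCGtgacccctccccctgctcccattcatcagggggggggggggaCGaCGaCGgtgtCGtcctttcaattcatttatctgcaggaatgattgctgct
Zic4, chr9:91368722-91368971, plus strand: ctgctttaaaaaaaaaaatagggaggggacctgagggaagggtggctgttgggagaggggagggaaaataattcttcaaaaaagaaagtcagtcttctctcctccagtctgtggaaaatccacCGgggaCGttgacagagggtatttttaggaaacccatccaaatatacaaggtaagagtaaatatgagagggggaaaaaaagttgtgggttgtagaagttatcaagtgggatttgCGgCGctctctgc
Irx2, chr13:72628570-72628819, plus strand: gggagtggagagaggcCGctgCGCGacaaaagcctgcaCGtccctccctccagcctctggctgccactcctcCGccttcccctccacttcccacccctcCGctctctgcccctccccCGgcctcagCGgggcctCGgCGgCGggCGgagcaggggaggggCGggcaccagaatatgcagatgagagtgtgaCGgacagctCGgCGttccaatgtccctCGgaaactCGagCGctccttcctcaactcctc
The Zic1 window held 27 CpGs, and 8.16% of 27025 promoters of that length held as many. The Irx2 window held 19 CpGs and the Zic4 window 4, against a median of 6 over all promoters. The Irx3 window held 13 and the Zic5 window 11.

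The table held 14121 cells, and 13294 of them (6840 control, 6454 Eed-cKO) were taken as neural, called All-Hypo here: all cells outside clusters named endothelial-, pericyte-, leptomeningeal- or microglia-like from their markers. All-Hypo thus includes 958 control and 944 Eed-cKO cells of unnamed clusters, whose neural identity was not shown. One of these, led by the blood gene Alas2 (6 control, 237 Eed-cKO cells), gave 5.09% of the Eed-cKO Zic1 UMIs. An All-Hypo cell had a median of 4770.5 UMIs in control and 4425 in Eed-cKO embryos. Eed itself was lower in Eed-cKO embryos, 23.4 ± 2.6 CPM (SD, n = 9) against 32.0 ± 1.9 (SD, n = 6), with no overlap between the groups (log2 difference -0.45, adjusted p 0.000460 in edgeR's quasi-likelihood test). CPM is the number of UMIs of a gene per 1000000 UMIs of the same cells, with TMM-scaled totals (trimmed mean of M values) where mean ± SD is given and plain totals within clusters and in floors. An antisense gene overlaps Eed and could add to these UMIs where strand was not used in counting. Counts from the 3′ end do not show whether the floxed part of Eed was present. This level therefore does not measure how much Eed function was left. The study reports loss of H3K27me3 staining from the Eed-cKO hypothalamus at an earlier stage. Eed-cKO embryo 2 gave only 208 cells, where 3 UMIs of a gene already make 4.78 CPM. Eed-cKO embryo 8 stood apart: its summed level of 5 thalamus markers was 515 CPM against 126 to 191 in the other 8 Eed-cKO embryos, and its summed choroid plexus markers reached 24824 against at most 449. In the sums used below, fewer expressing cells and fewer molecules per cell cannot be told apart.

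Zic genes were the abundant members and Irx genes the rare ones, in both genotypes. In control embryos the levels, in CPM over All-Hypo cells and with no scaling by length because a 3′ method counts each molecule once, were 210 ± 85 for Zic1, 162 ± 63 for Zic4 and 89.2 ± 35.4 for Zic2 (SD, n = 6). Irx5, the Iroquois gene with the highest level here, followed at 17.2 ± 5.5. Irx3 (6.49 ± 1.99), Irx1 (6.05 ± 3.12), Irx2 (4.97 ± 3.55) and Irx6 (3.18 ± 0.62) lay close together. Zic5 gave 13 UMIs in all control cells and 6 in all Eed-cKO cells, a level of 0.379 ± 0.297 and 0.163 ± 0.210, and was too rare for the All-Hypo test.

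The order held within embryos at its top. Zic1 exceeded Zic4, and Zic4 exceeded Zic2, in 6 of 6 control and 9 of 9 Eed-cKO embryos, although the ranges of neighbours in this order overlapped between embryos. Zic2 exceeded Irx5 in every embryo, with no overlap of ranges in either genotype. Irx3, Irx1, Irx2 and Irx6 could not be ordered: in control embryos Irx3 was above Irx1 in 4 of 6, Irx1 above Irx2 in 3 of 6 and Irx2 above Irx6 in 3 of 6. In Eed-cKO embryos Irx2 took the rank after Irx5, but it was above Irx3 in only 4 of 9.

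**Figure D1:**
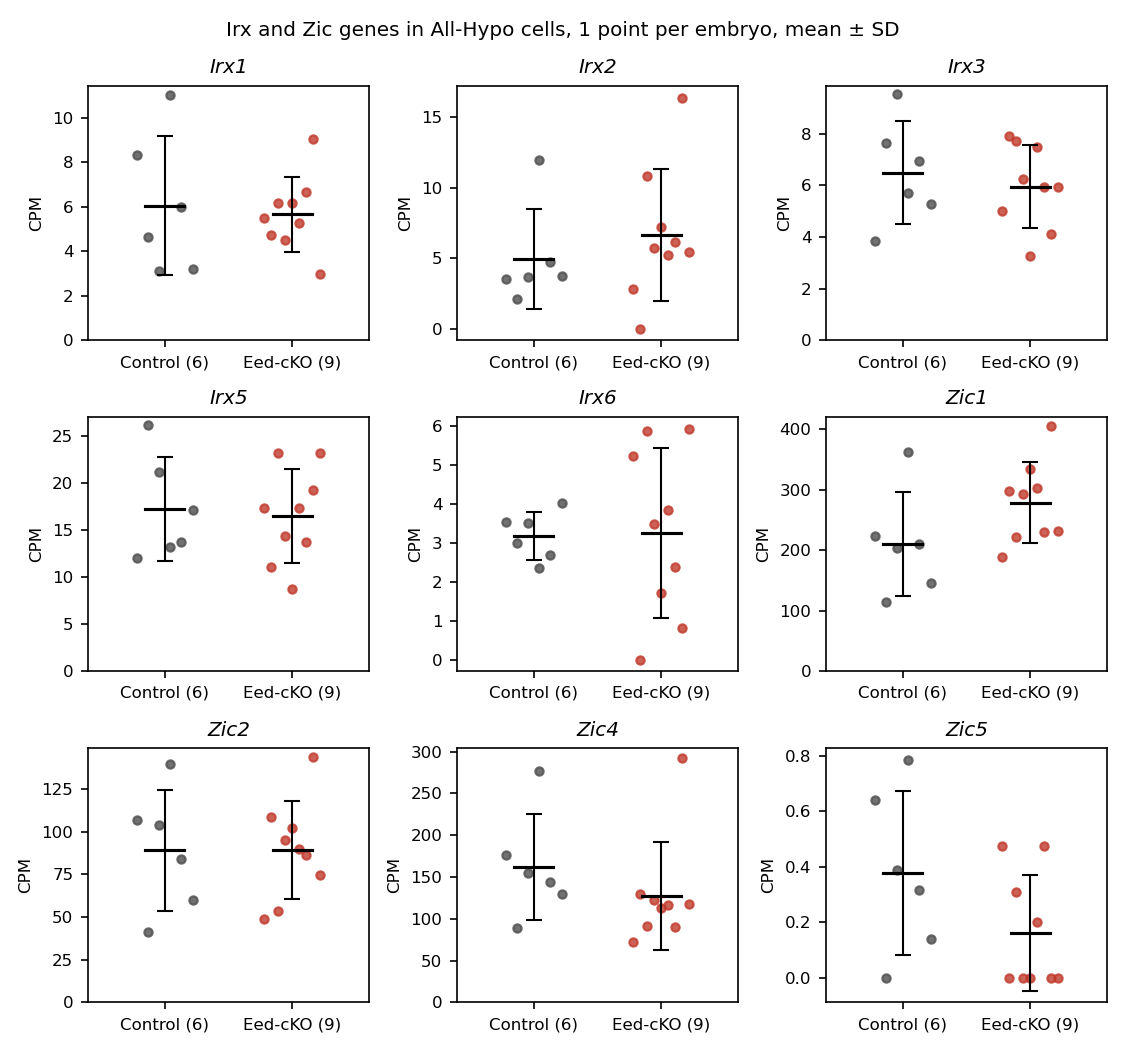
Level of each Irx and Zic gene in All-Hypo cells (y axes, CPM, linear, each panel with its own scale), with 1 point per embryo for 6 control and 9 Eed-cKO embryos and bars for the mean ± SD. The groups overlap in all 9 panels, and the highest Eed-cKO points of Irx2, Zic1, Zic2 and Zic4 belong to embryo 8 (16.4, 406, 144 and 293).

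The summed level of no tested member was called different between genotypes. None of the 8 members tested passed an adjusted p of 0.05 in edgeR's quasi-likelihood test, where 27.7% of the 12545 genes tested were called, 15.3% higher and 12.4% lower in Eed-cKO. At an unadjusted p under 0.05 there was 1 member, Zic1, and DESeq2 called 0. The median log2 difference of the 8 members was -0.04, beside 0.01 over all genes tested.

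Zic1, which keeps dorsal neural progenitors undifferentiated, had the values nearest to a call. In control embryos it ranged from 114 through a median of 207 to 362 CPM, and in Eed-cKO embryos from 190 through 294 to 406. Only 1 control embryo, embryo 4, lay above the Eed-cKO median. The log2 difference was 0.41 (SE 0.19, 95% interval 0.01 to 0.81, adjusted p 0.123). Without control embryo 4 it was 0.63 with adjusted p 0.00713, so that embryo decided the call.

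Zic4, the partner that shares the Zic1 locus, had its mean difference on the other side. It ranged from 89.1 through 149 to 277 in control and from 71.7 through 117 to 293 in Eed-cKO embryos. Embryo 8 held the Eed-cKO maximum, and each of the other 8 lay below the control median. The log2 difference was -0.36 (SE 0.25, 95% interval -0.87 to 0.15, adjusted p 0.295), and without Eed-cKO embryo 8 it was -0.61 with adjusted p 0.0136. Zic2, a gene whose loss causes holoprosencephaly, had nearly equal medians, 94.0 in control and 90.1 in Eed-cKO, with a log2 difference of -0.01 (95% interval -0.48 to 0.46, adjusted p 0.980).

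Among Irx genes, Irx2 had the widest spread: 2.09 through 3.73 to 12.0 in control and 0 through 5.73 to 16.4 in Eed-cKO embryos, the 0 being embryo 2 and both maxima control embryo 4 and Eed-cKO embryo 8. Its log2 difference was 0.51 (95% interval -0.28 to 1.3, adjusted p 0.343), and without control embryo 4 it was 0.96 (adjusted p 0.0428). Irx5 ranged from 12.0 through 15.4 to 26.2 in control and from 8.76 through 17.4 to 23.2 in Eed-cKO embryos, with a log2 difference of -0.07 (95% interval -0.48 to 0.35, adjusted p 0.834). Irx3, often expressed with Irx5, gave -0.16 (95% interval -0.61 to 0.29), Irx1 -0.06 (95% interval -0.62 to 0.49) and Irx6 0.11 (95% interval -0.54 to 0.76). These intervals hold both modest increases and modest decreases for every Irx gene.

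More cells carried a Zic1 UMI in Eed-cKO embryos. The share of All-Hypo cells with at least 1 Zic1 UMI was 12.7% to 31.4% in control embryos and 26.9% to 52.3% in Eed-cKO embryos, means 23% ± 6.2 (SD, n = 6) and 37.7% ± 8.8 (SD, n = 9). The difference of 14.8 percentage points gave an exact two-sided permutation p of 0.00200 over 5005 splits of the embryos (adjusted over the 9 members, p 0.0180). It kept its direction but not its call with cells thinned to 2000 UMIs (11 points, adjusted p 0.0539 over the 9 members, exact permutation test). Zic2 went from 15% ± 4.8 (SD, n = 6) to 21.5% ± 6.8 (SD, n = 9; exact permutation, adjusted p 0.293), and Zic4 was 16.5% ± 5.5 (SD, n = 6) and 17.9% ± 7.0 (SD, n = 9; exact permutation, adjusted p 0.903). An Irx UMI was much rarer: from gene to gene, 1.1% to 4.2% of cells carried one in control embryos, and 1.1% to 4.4% did in Eed-cKO embryos. Endothelial-like cells, which are not neural, had Zic1-positive shares of 11.3% (150 cells, control) and 11.4% (123 cells, Eed-cKO), below the All-Hypo shares, and Zic2-positive shares of 32.7% and 27.6%, above them. Over all non-neural cells, however, the Zic1-positive share was 32.1% of 346 control and 53.2% of 481 Eed-cKO cells. In vascular leptomeningeal-like cells it was 70.5% and 78.0%. These shares are pooled over embryos and were not tested. Irx1 and Irx2 were at 0 in 88 control and 268 Eed-cKO vascular leptomeningeal-like cells, which allows up to 3.41% and 1.12% of cells with a UMI and sets no limit on cells that express the gene.

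The cells behind these sums were not the same in the genotypes. Cells were clustered with the 9 members left out of the clustering genes, and clusters are called by their leading gene. In control embryos Zic1 UMIs came mostly from 3 neuron-like clusters, 25.6% from the Gbx2-led one, 24.3% from the Dmrta2-led one and 21.3% from the Sp8-led one. In Eed-cKO embryos 55.9% of Zic1 UMIs, 51.4% of Zic2 UMIs and 53.0% of Zic4 UMIs came from a Hoxc10-led neuron-like cluster, which held 1590 Eed-cKO cells (24.6% of All-Hypo) and 30 control cells. The Sp8-led cluster, with 1160 control and 140 Eed-cKO cells, gave 1.97% of the Eed-cKO Zic1 UMIs.

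**Figure D2:**
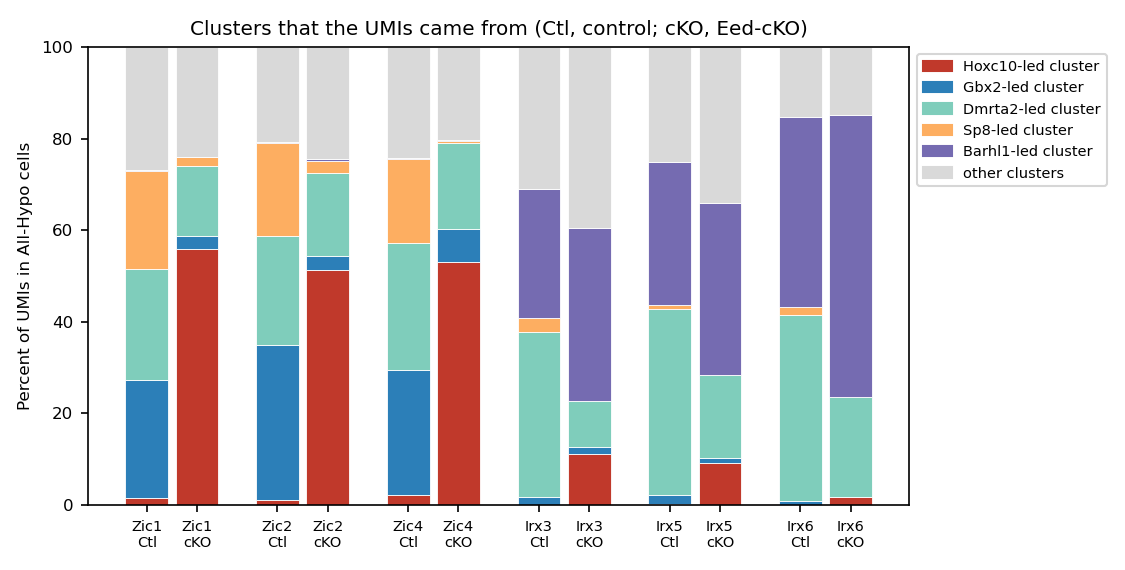
Percent of each gene's All-Hypo UMIs (y axis) that came from 5 clusters named by their leading gene and from all other clusters, as stacked bars for control (Ctl) and Eed-cKO (cKO) cells pooled over embryos. The Hoxc10-led cluster gave over 51% of the Eed-cKO UMIs of Zic1, Zic2 and Zic4 and at most 11.1% of those of Irx3, Irx5 and Irx6.

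Outside the Hoxc10-led cluster, Zic4 lay lower in most Eed-cKO embryos than in control embryos, and these values are a description because the cluster was picked after levels were seen. In All-Hypo cells outside it, Zic4 ranged from 85.8 through 144 to 263 CPM in control and from 37.0 through 65.4 to 293 in Eed-cKO embryos. Zic2 there had medians of 90.4 and 54.6, and Zic1 of 199 and 166. With the Gbx2-led cluster, which is described next, left out too, the medians were 112 and 65.4 for Zic4, 57.7 and 54.6 for Zic2 and 146 and 166 for Zic1, so the direction for Zic1 turned and the gap in Zic2 nearly closed. In it, Eed-cKO embryos had 455 through 619 to 726 for Zic1, 115 through 181 to 250 for Zic2 and 157 through 270 to 311 for Zic4. Every Eed-cKO embryo had more Zic1 in this cluster than any control embryo had outside it, where the highest was 355. The 30 control cells of this cluster were high as well, with pooled levels of 771 for Zic1, 212 for Zic2 and 815 for Zic4. Its pooled Eed-cKO cells had 632, 182 and 256. Only 1 control embryo had at least 10 cells there. With the cluster left out, the fitted log2 differences in All-Hypo cells were -0.32 for Zic1, -0.59 for Zic2 and -0.93 for Zic4, so that the sign for Zic1 turned.

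The Gbx2-led cluster differed in size between embryos and genotypes as well. It held 348 control cells, 7 to 98 in each control embryo, and 40 Eed-cKO cells, all from embryo 8. Gbx2 marks the thalamus, and the cluster's pooled control cells had 624 CPM of Zic1, 350 of Zic2 and 511 of Zic4. Some other control cells lay higher. These were pericyte or smooth muscle-like cells for Zic1 (719) and vascular leptomeningeal-like cells for Zic2 (428). The 30 control cells of the Hoxc10-led cluster were higher for Zic1 (771) and Zic4 (815). Control embryo 2, with 7 cells of the Gbx2-led cluster, had the lowest Zic1, Zic2, Zic4 and Irx2 of the controls. The highest values did not follow the cluster. Control embryo 3, with 98 of its cells, had 204 CPM of Zic1 and 155 of Zic4, below the 362 and 277 of control embryo 4, with 66. The summed thalamus markers ranged from 189 to 824 in control embryos, and Gbx2 itself was at most 5.44 CPM in the Eed-cKO embryos other than embryo 8. How far the dissection contributed to these cell numbers was not tested. Without this cluster the Zic1 log2 difference in All-Hypo cells was 0.68 and that of Zic4 was -0.14.

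In all neuron-like cells 0 of 9 tested members were called, beside 14.5% of 15096 genes, with 1 (Zic1) at an unadjusted p under 0.05 and 0 in DESeq2, and Zic1 was 222 ± 101 (SD, n = 6) and 306 ± 81 (SD, n = 9; log2 difference 0.46, 95% interval 0.08 to 0.85, adjusted p 0.103). Within transmitter classes of these cells the values depended on the class. Cells were called Glut when they held a UMI of Slc17a6 (the vesicular glutamate transporter VGLUT2) and none of Slc32a1 (the GABA transporter VGAT), GABA in the opposite case and Glut/GABA with both. In Glut/GABA cells (290 control, 982 Eed-cKO) 3 of 8 tested members were called, beside 4.49% of 12597 genes. Zic1 rose from 284 ± 175 (SD, n = 6) to 497 ± 120 (SD, n = 9), a log2 difference of 0.87 (SE 0.18, adjusted p 0.00129). Zic2 rose from 96.0 ± 47.7 to 164 ± 49 (log2 difference 0.81, SE 0.20, adjusted p 0.00623), while Zic4 gave 233 ± 112 and 201 ± 64 (log2 difference -0.15, 95% interval -0.55 to 0.24). Irx6 was lower at 4 UMIs against 14 (log2 difference -3.04, SE 0.86, adjusted p 0.0258), with 0 as the lowest embryo in both groups. Its control level, 6.98 ± 12.76 CPM (SD, n = 6), rested mainly on 1 embryo at 32.4 CPM. With an embryo left out, Irx6 was tested in only 14 of 15 fits. DESeq2 called 0 of the 3 called members, Zic1, Zic2 and Irx6. Of the Eed-cKO cells of this class, 71.3% lay in the Hoxc10-led cluster, against Sp8-led (26.2%) and Dmrta2-led (25.5%) cells as the main control sources.

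In GABA cells (1333 control, 579 Eed-cKO) only Irx2 of 7 tested members was called, beside 9.1% of 12655 genes. It gave 8 UMIs in control and 17 in Eed-cKO cells, from 0 to 2.03 CPM in control embryos and from 0 to 16.5 in Eed-cKO embryos (log2 difference 2.35, SE 0.64, adjusted p 0.0125), and without Eed-cKO embryo 5 the adjusted p was 0.0645. Zic1 was 238 ± 82 and 332 ± 128 (log2 difference 0.47, 95% interval 0.12 to 0.81, adjusted p 0.0792). Irx1, with 18 control and 19 Eed-cKO UMIs, had a log2 difference of 1.43 (95% interval 0.22 to 2.63, adjusted p 0.134). In these GABA cells 3 members (Irx1, Irx2 and Zic1) were at an unadjusted p under 0.05, and DESeq2 called 1. In Glut cells (2420 control, 1995 Eed-cKO) 0 of 8 members were called, beside 7.38% of 14142 genes, 2 members (Irx6 and Zic2) at an unadjusted p under 0.05 and 0 in DESeq2. Zic1 in Glut cells was 206 ± 105 and 208 ± 92 (log2 difference 0.02, 95% interval -0.45 to 0.49). Zic2 was 99.4 ± 51.6 and 67.1 ± 37.8 (log2 difference -0.57, 95% interval -1.12 to -0.01, adjusted p 0.223).

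The GABA cells showed the clearest split by cluster. Outside the Hoxc10-led cluster, the 1313 control GABA cells had 69.5 through 145 to 224 CPM of Zic4 per embryo, and the 344 Eed-cKO cells 10.6 through 30.1 to 75.3. The 2 ranges overlapped by the highest Eed-cKO and the lowest control values only. Zic1 in the same cells was 124 through 238 to 308 in control and 39.0 through 111 to 141 in Eed-cKO embryos. In the Hoxc10-led cluster Eed-cKO GABA cells had 470 through 725 to 1060 for Zic1 and 151 through 295 to 517 for Zic4. Summed over all GABA cells, Zic4 was 168 ± 66 (SD, n = 6) in control and 145 ± 54 (SD, n = 9) in Eed-cKO embryos (log2 difference -0.29, 95% interval -0.68 to 0.09, adjusted p 0.393).

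**Figure D3:**
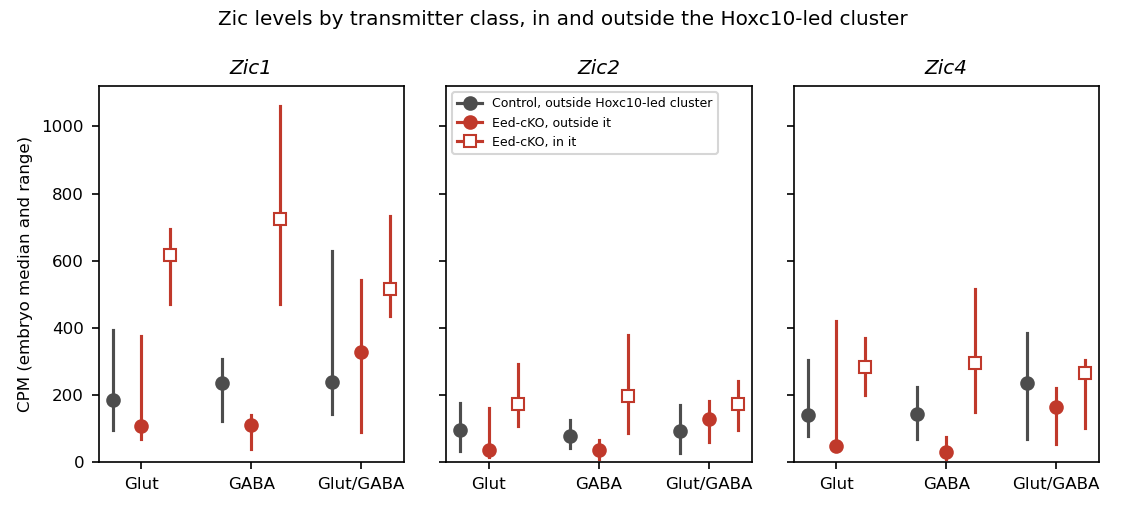
Zic1, Zic2 and Zic4 in Glut, GABA and Glut/GABA neurons (y axis, CPM, median and range over embryos with at least 10 such cells) for control cells outside the Hoxc10-led cluster, Eed-cKO cells outside it and Eed-cKO cells in it. In GABA cells Eed-cKO Zic4 outside the cluster had a median of 30.1 against 145 in control, and 295 in it.

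The Sp8-led cluster, the main GABA cluster of control embryos, showed a gap in Zic4 within 1 cluster. Its Zic1 level was 235 CPM in control and 209 in Eed-cKO cells, while Zic4 was 157 and 26.3. Over clusters with at least 20 cells of each genotype and 10 UMIs of the gene, the pooled Zic4 level was lower in Eed-cKO cells in 19 of 24 clusters, Zic1 in 12 of 27 and Zic2 in 15 of 25. In the Dmrta2-led cluster, Zic1 was 220 and 397 and Zic4 194 and 206. Clusters of 1 genotype share embryos, so these counts describe the cells and are not tests.

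Zic4 UMIs per Zic1 UMI were computed because the 2 genes share a locus, and this ratio was chosen after the levels were seen and has no test. It ranged from 0.685 through 0.772 to 0.884 in control and from 0.338 through 0.411 to 0.721 in Eed-cKO embryos. The only Eed-cKO embryo within the control range was embryo 8. With the Gbx2-led cluster left out the ranges were 0.618 to 0.930 and 0.338 to 0.580, with no overlap. The Zic2 to Zic1 ratio overlapped slightly, 0.359 to 0.509 in control and 0.241 to 0.375 in Eed-cKO.

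**Figure D4:**
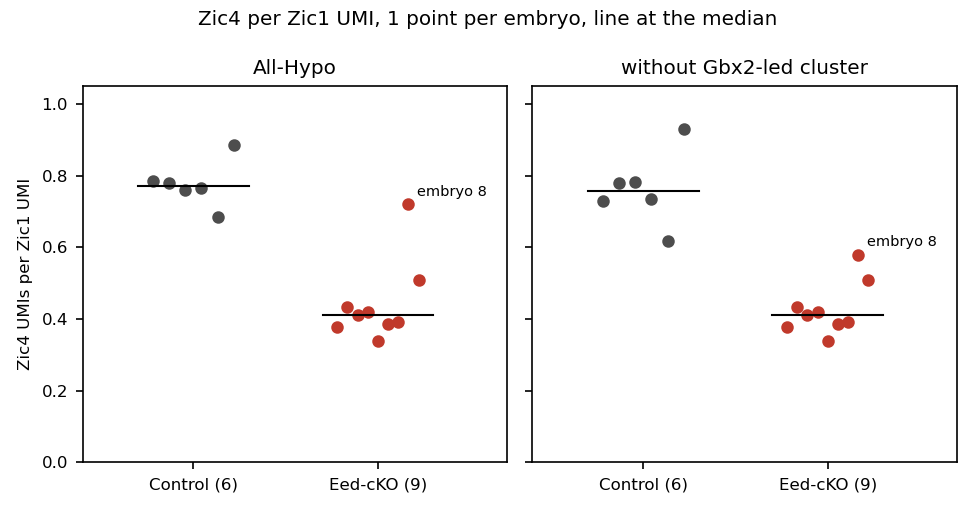
Zic4 UMIs per Zic1 UMI (y axis, no unit) in 6 control and 9 Eed-cKO embryos, 1 point per embryo with a line at the median, for All-Hypo cells and for the same cells without the Gbx2-led cluster. Medians were 0.772 and 0.411 with all cells, and embryo 8 moved from 0.721 to 0.580 without that cluster.

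Irx UMIs were more frequent in Glut than in GABA cells of control embryos, and Irx5 alone of the 5 Irx genes stayed called once cells were thinned to equal depth. Glut and GABA cells of the same embryo were compared with the embryo as a block, and 6 of 8 tested members were called in control, beside 7.68% of 13707 genes. Irx5 was 22.5 ± 9.8 CPM in Glut and 0.991 ± 1.602 in GABA cells (log2 difference 4.44, SE 0.37, adjusted p 3.44e-11). Irx3 gave 2.29 (adjusted p 0.000223), Irx6 2.27 (adjusted p 0.0214), Irx2 1.98 (adjusted p 0.0201) and Irx1 1.29 (adjusted p 0.0492). Zic1 was lower in Glut cells by -0.21 (adjusted p 0.0422), and Zic2 and Zic4 were not called. With cells thinned to 2000 UMIs before the classes were set, Irx5 gave 2.76 (adjusted p 8.42e-05), and Irx1, Irx2, Irx3 and Irx6 gave 1.25 to 2.48 with adjusted p from 0.327 to 0.545.

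In Eed-cKO embryos Irx5 was again higher in Glut cells, 27.2 ± 12.5 against 2.62 ± 2.94 (log2 difference 2.85, SE 0.39, adjusted p 3.15e-11), and so was Irx3 (1.76, adjusted p 0.0312; 0.0624 without embryo 8), but neither stayed called in thinned cells (Irx5 0.86, adjusted p 0.596, and Irx3 0.69, adjusted p 0.895). Irx6 had 90 UMIs in Glut cells and 0 in the 579 GABA cells, where 3 UMIs would be 1.07 CPM. It was called in the same blocked edgeR test (log2 difference 5.64, adjusted p 5.82e-06), but not in thinned cells. Irx1 (-0.63, 95% interval -1.57 to 0.32) and Irx2 (-0.84, 95% interval -1.89 to 0.20) were not called. Zic1 (-0.68, adjusted p 1.83e-16), Zic2 (-0.59, adjusted p 0.000149) and Zic4 (-0.45, adjusted p 0.000921) were lower in Glut than GABA cells, beside 7.5% of 13333 genes called. All 3 Zic differences turned sign without the Hoxc10-led cluster.

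The Glut to GABA difference itself changed between genotypes for 2 of the tested members, beside 1.47% of 14559 genes. Irx2 differed by -2.79 (SE 0.78, adjusted p 0.0420), resting on 17 and 43 Eed-cKO and 8 and 76 control UMIs in GABA and Glut cells. Zic2 differed by -0.74 (SE 0.18, adjusted p 0.0106), from 85.9 ± 32.9 in GABA and 101 ± 52 in Glut cells of control embryos to 102 ± 49 and 68.2 ± 38.6 in Eed-cKO embryos. In thinned cells 0 members differed between genotypes, 4 were called in control embryos, Irx5 the only Irx gene among them, and 2 in Eed-cKO embryos, Zic1 and Zic2.

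**Figure D5:**
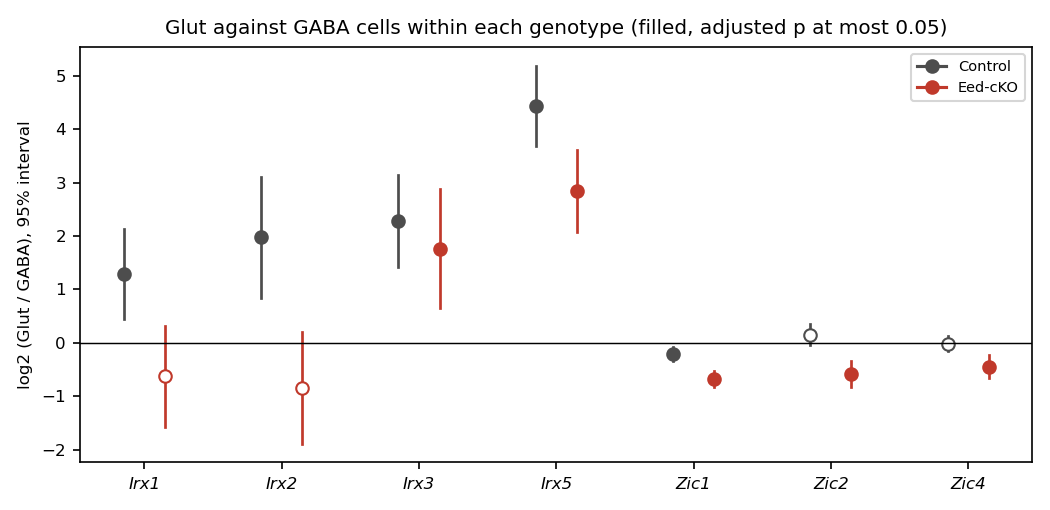
Log2 ratio of Glut over GABA cells (y axis) with its 95% interval for 7 Irx and Zic genes in control and Eed-cKO embryos, filled where the adjusted p was at most 0.05. Irx5 lies at 4.44 and 2.85, Irx2 at 1.98 and -0.84, and the 3 Zic genes lie below 0 in Eed-cKO. Irx6, called in both genotypes, is not drawn.

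Irx3, Irx5 and Irx6 shared their main sources. In control embryos Irx5, Irx3 and Irx6 UMIs came chiefly from the Dmrta2-led cluster (40.6%, 36.2% and 40.7%) and from the Barhl1-led cluster (31.1%, 28.1% and 41.5%), the latter being 2.92% of All-Hypo cells. Barhl1 is a homeobox gene of the subthalamic and mammillary region. In that cluster Irx5 had 138 CPM in control and 123 in Eed-cKO cells, and Irx6 34.2 and 43.7. In Eed-cKO embryos the Barhl1-led cluster gave 61.4% of Irx6, 37.9% of Irx3 and 37.6% of Irx5 UMIs. In control embryos the Dmrta2-led cluster also gave 19.9% of Irx1 and 27.2% of Irx2 UMIs, beside 26.4% and 13.9% from the Neurod6-led cluster and further shares from astrocyte-like clusters. In the Neurod6-led cluster Irx1 had 30.9 CPM in control and 10.2 in Eed-cKO cells, and Irx2 13 and 0.638.

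Astrocyte-like cells were an Irx1 and Irx2 source in both genotypes, with no member called of 7 tested (1, Zic2, at an unadjusted p under 0.05, and 0 in DESeq2) beside 7.22% of 11837 genes. Irx1 was 26.7 ± 8.6 (SD, n = 6) and 25.1 ± 21.3 (SD, n = 9), and Irx2 25 ± 16.3 and 27.6 ± 12.8. Zic2 was 32.6 ± 20.8 and 63.5 ± 33.9 (log2 difference 0.88, 95% interval 0.16 to 1.59, adjusted p 0.154) and Zic4 60.1 ± 40.8 and 42.7 ± 26.4 (-0.65, 95% interval -1.35 to 0.05). Oligodendrocyte precursor-like cells, too few for a test, had more Irx1 than astrocyte-like cells. Their pooled level was 90.1 CPM in 80 control cells (28 UMIs) and 44.1 in 36 Eed-cKO cells (8 UMIs). Ependymal-like cells, too few for a test, had the highest Irx5 level of the named non-neuronal kinds, 112 CPM in 40 control and 103 in 43 Eed-cKO cells. Tanycyte-like cells (63 control, 225 Eed-cKO) held 0 UMIs of the 5 Irx genes in control, which allows up to 15.6 CPM for each. Of 2 members tested in them 0 were called, beside 0.368% of 9241 genes, with 1 (Zic1) at an unadjusted p under 0.05 and 0 in DESeq2. That test used the 3 control and 8 Eed-cKO embryos with at least 10 such cells, and over all tanycyte-like cells Zic1 was 46.9 CPM in control (9 UMIs) and 55.6 in Eed-cKO (48 UMIs).

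Cells outside the reach of Sox1-Cre also held Zic1 and Zic2. In vascular leptomeningeal-like cells, which line the brain's surface, Zic1 was 408 ± 54 (SD, n = 3) and 593 ± 94 (SD, n = 8), with a log2 difference of 0.52 (95% interval 0.08 to 0.97, adjusted p 0.288), and Zic2 was 429 ± 78 and 346 ± 69 (-0.29, 95% interval -0.75 to 0.17). Of 3 members tested there 0 were called, beside 2.1% of 10259 genes, with 1 (Zic1) at an unadjusted p under 0.05 and 0 in DESeq2. Endothelial-like cells had 110 ± 45 and 77.8 ± 49.8 for Zic2, and 0 of 4 members called beside 0.306% of 9796 genes (0 at an unadjusted p under 0.05 and 0 in DESeq2). Over all non-neural cells Zic1 rose from 217 ± 64 (SD, n = 6) to 390 ± 72 (SD, n = 8), a log2 difference of 0.86 (SE 0.20, adjusted p 0.0185), beside 2.87% of 12399 genes called. The leptomeningeal-like cells numbered 88 of 346 non-neural control and 268 of 481 non-neural Eed-cKO cells. They held 215 of 330 non-neural Zic1 UMIs in control and 767 of 890 in Eed-cKO. Pericyte or smooth muscle-like cells had higher pooled Zic1 levels, 719 CPM against 456 in control and 646 against 574 in Eed-cKO. The genotype effect on Zic1 in non-neural cells exceeded that in All-Hypo cells by 0.53 on the log2 scale (95% interval -0.05 to 1.11, adjusted p 0.429), and no member's effect was called different, beside 3.5% of 16111 genes.

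Neighbouring Irx genes were found in the same cells more often than Irx genes of different chromosomes. For the neighbours Zic1 and Zic4 the ratios below cannot decide whether they stand apart from other Zic pairs. The ceiling of such a ratio falls as more cells hold the commoner gene of the pair. Of control cells with an Irx6 UMI, 81.3% also held an Irx5 UMI, against 3.33% of cells without, and in Eed-cKO embryos these shares were 69.1% and 3.73%. Pairs at 1 locus were found together 18.3 times as often as independent detection would give in control (median of 5 pairs) and 10.7 times in Eed-cKO cells, and 4 of these 5 pairs were Irx pairs. Zic1 with Zic4 gave 3.46 and 2.32, and Zic2 with Zic4, which lie on different chromosomes, 3.93 and 2.85. Pairs of 1 family at different loci had medians of 3.59 and 2.5, and Irx with Zic pairs 0.516 and 0.903. Cells of higher depth hold more of every gene, and with cells thinned to 2000 UMIs the medians were 14.3 and 13.7, 3.85 and 2.23, and 0.650 and 0.603. Thinning does not remove the ceiling of these ratios. Irx pairs and Zic pairs are therefore not on 1 scale, nor are Zic pairs of the 2 genotypes. Of cells with a Zic4 UMI, 79.8% in control and 86.3% in Eed-cKO also held Zic1, while the reverse share was 57.1% and 39.5%.

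The members' nearest genes by pattern were largely each other. Over 57 sums of a cluster and genotype, with 13396 genes compared by Pearson's r on the log scale and no test, Zic1 was nearest to Zic4 (0.82) and Zic2 (0.82), Irx1 to Irx2 (0.78) and Irx3 to Irx5 (0.75). Irx5 was nearest to Foxa1 (0.84), followed by Crnde (0.80), the noncoding gene beside it, and Lmx1a (0.80). Irx6 was nearest to Barhl1 (0.67). Sums share libraries and differ in depth, so r is a description.

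Zic levels varied little between libraries of 1 embryo and Irx levels more. The highest library exceeded the lowest of the same control embryo by a median factor of 1.3 for Zic1, 1.32 for Zic2 and 1.27 for Zic4, and by 2.70 to 3.69 for the Irx genes. In Eed-cKO embryos the factors were 1.33, 1.37 and 1.43 for the Zic genes and 1.62 to 4.83 for the Irx genes. The study divided dissected hypothalami into pieces before dissociation. Whether libraries of 1 embryo came from separate pieces is not given in the sources used here.

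Of the 24 genes of the table nearest to the 4 loci, 3 on each side, 20 were tested and 4 were higher in Eed-cKO, beside 15.3% of all genes called higher, and 0 were lower. The 4 were Mmp2 (0.62, adjusted p 0.00412), a matrix metalloproteinase gene beyond Irx6, and Adamts7 (0.53, adjusted p 0.0254), Morf4l1 (0.54, adjusted p 0.00871) and Plscr1 (1.00, adjusted p 0.0198) on either side of Zic1 and Zic4. Fto, whose introns carry long-range enhancers of Irx3, was 174 ± 11 and 174 ± 12 (log2 difference 0.0032, adjusted p 0.981).

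Genes of the pathways around the members are given beside all 12545 tested genes, of which 15.3% were higher and 12.4% lower in Eed-cKO. The filter on level asked for a median log2 CPM of at least 1.5 over embryos, most of which were Eed-cKO. A gene at 0 in every control embryo could pass it, as Pitx1 did. A gene at 0 in every Eed-cKO embryo could not. The counts and medians below are therefore not even between higher and lower genes. Untested list genes lay on both sides, such as Kl (80 control, 49 Eed-cKO UMIs) and Gli1 (35 and 163). Of 11 tested Hedgehog pathway genes 8 were higher and 0 lower in Eed-cKO (median log2 difference 1.08), with Gli2 at 2.22 (adjusted p 0.000116) and Gli3, the repressor that patterns dorsal tissue, at 1.33 (adjusted p 0.000280). Of 6 tested roof plate genes 4 were higher and 0 lower (median 1.27), among them Msx1 (3.62, adjusted p 2.59e-06) and the ligand gene Bmp4 (2.91, adjusted p 1.92e-05). Of 11 tested TALE homeobox genes, 6 were higher and 0 lower (median 0.22), with Meis1, a cofactor of Hox proteins, at 1.89 (adjusted p 6.99e-08). Of 5 tested Gli and Glis genes, which share the Zic zinc finger fold, 3 were higher and 0 lower (median 1.33), Glis3 at 1.89 (adjusted p 5.26e-06). Of 12 tested midbrain, hindbrain and spinal cord regulators 11 were higher and 0 lower (median 2.94), among them Pax2 (4.68, adjusted p 2.72e-08). Of 19 forebrain genes that border or accompany Irx, 5 were higher and 2 lower (median 0.19): Otx2 (1.32, adjusted p 0.000416) and Olig3 (3.19, adjusted p 1.19e-05) rose, and Gbx2 (-2.13, adjusted p 0.0115) and Tcf7l2 (-1.80, adjusted p 0.00123), which mark the thalamus, fell. The choroid plexus list had 3 of 3 tested genes higher, the thalamus list 4 of 5 lower, the telencephalon list 2 of 5 higher, and of the pituitary list 1 of 1, Pitx1, was higher, at 0 UMIs in control and 289 in Eed-cKO cells.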

How the data were processed

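Single cells of embryonic mouse hypothalamus were profiled on the ddSEQ system. The authors aligned reads to mm10 with STAR 2.5.2b and used SAMtools 1.3, per the submitters' processing notes, and deposited raw UMI counts per gene and cell (16510 genes, 14121 cells, 48 libraries). Whether counting used strand is not given in the sources used here. The study marked doublets with DoubletFinder in cells that passed quality control and compared cell classes with and without them. No cell was removed here, and leaving out the 6% of cells per library with the highest doublet score was an alternative. In all, 101 barcodes were shared by more than 1 library (203 cells).

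Cells were clustered with scanpy 1.11.5 (2000 variable genes without the members, 30 components, Leiden resolution 1) and clusters were named from markers. Counts were summed per embryo, to 5363119 to 7487417 UMIs in control and 658175 to 6299181 in Eed-cKO embryos. The main test was edgeR 4.0.16 (quasi-likelihood, TMM) with Benjamini-Hochberg adjustment over all genes tested and a threshold of 0.05, for genes with at least 15 UMIs and, in All-Hypo cells, the study's further filter on level. The study's test, limma-voom with TREAT at 0.18 on libraries, was an alternative, because libraries of 1 embryo are not independent. Other alternatives were scaling, filters, DESeq2 1.42.0, libraries or litters as samples, sex as covariate, other cell sets, thinning and leaving out embryos. Those that leave out a cluster, the largest library or an embryo within classes, and the test over all non-neural cells, were chosen after seeing the data. Scaling by library size alone moved the median log2 difference of all genes from 0.01 to 0.05 and the share of calls that were higher from 55.3% to 67.6%. For shares of cells with a UMI, embryos were permuted between genotypes in an exact test, two-sided. In simulated counts of the All-Hypo comparison (12462 genes) 88.9% of genes changed 2-fold and 100% of those changed 4-fold were recovered, and 7.11% of calls were false. For the difference between genotypes in Glut against GABA cells (12543 genes) these shares were 63.3%, 90.9% and 8.72%. That simulation used gene means of All-Hypo cells and a dispersion set below the one estimated there, and changed genes were drawn at random. It therefore does not measure recovery at the noise of the Glut and GABA sums, or for rare genes such as Irx2. Floors of 3 UMIs cover counting error only, and 95% intervals are those of the fit over embryos.

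The members, lists and markers were chosen with earlier results of these data known. Of each list, the genes named are from the 3 called genes with the largest rise and the largest fall, and of the genes most like a member, from its 3 nearest. Gene coordinates are from GENCODE vM21.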

Additional observations from a re-analysis of the deposited data

Results flagged for a closer look

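Control embryo 4 had the highest Irx2 level of the 6 control embryos, 12.0 CPM, with a gap to the next embryo that was large for the group's range. It also had the highest summed choroid plexus markers of the controls, 12.2 CPM, flagged in the same way. Eed-cKO embryo 8 was flagged as the far highest of 9 embryos for the Zic4 level (293 CPM), for Zic4 UMIs per Zic1 UMI (0.721), for the summed thalamus markers (515 CPM) and for the summed choroid plexus markers (24824 CPM). In all 26 groups of embryos were looked at in this way, and chance flags about 1 in 20. The part of neighbouring tissue in these values was not tested.

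The effect of genotype differed between Glut and GABA cells, by the interaction in edgeR's quasi-likelihood test, for Irx2 (-2.79 on the log2 scale, adjusted p 0.0420) and Zic2 (-0.74, adjusted p 0.0106). Irx2 had 0.944 ± 0.658 CPM in control GABA cells (SD, n = 6) and 5.25 ± 5.75 in Eed-cKO GABA cells (SD, n = 9), against 4.87 ± 4.19 and 3.69 ± 5.31 in Glut cells. The Hoxc10-led cluster made up 40.6% of Eed-cKO GABA cells and 18.9% of Eed-cKO Glut cells.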

How the results depend on the processing

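Members called in All-Hypo cells numbered 0 with the embryo as replicate and 1 with limma-voom TREAT on libraries (Zic1), 2 with libraries as samples in edgeR (Zic1 and Zic4), 1 without the Gbx2-led cluster (Zic1), 1 without it and Eed-cKO embryo 8 (Zic1) and 1 without the Hoxc10-led cluster (Zic4). Leaving out 1 embryo gave 0 to 2 calls, 2 without control embryo 4 (Zic1 and Irx2) and 1 without Eed-cKO embryo 8 (Zic4). In neuron-like cells the 0 calls became 1 without the Gbx2-led cluster, 1 without the Hoxc10-led cluster and 0 to 1 with an embryo left out. In Glut cells an embryo left out gave 0 to 2, the 2 being Zic2 and Zic4, lower without Eed-cKO embryo 8. In GABA cells the 1 call became 2 with library size alone and 3 without the Hoxc10-led cluster (Zic1, Zic2 and Zic4, all lower), and 0 to 2 with an embryo left out, 0 without Eed-cKO embryo 5 and 2 without control embryo 1 or 4 or Eed-cKO embryo 7 or 9. In Glut/GABA cells the 3 calls became 0 with DESeq2 and 0 without the Hoxc10-led cluster, and 2 to 3 with an embryo left out.

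For Glut against GABA cells, thinning to 2000 UMIs left 2 members called in Eed-cKO embryos and 0 for the difference between genotypes, and that difference had 1 call without the Hoxc10-led cluster (Zic4) and 4 without Eed-cKO embryo 8. The 1 call among shares of cells with a UMI became 0 with at least 2 UMIs, 0 with thinning to 2000 or 1000 UMIs, 3 with libraries as samples, 2 without the Gbx2-led cluster and 0 without the Hoxc10-led cluster, and stayed 1 with each embryo left out. Fewer cells enter without a cluster or embryo, and the cause of the other moves was not tested.

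Signs that turned were, on the log2 scale and never with a call unless said: without the Hoxc10-led cluster, Irx3 (0.073), Irx5 (0.21) and Zic1 (-0.32) in All-Hypo cells, Zic1 (0.28), Zic2 (0.28) and Zic4 (1.04, called) for Glut against GABA in Eed-cKO, and Zic2 (0.12) for the difference between genotypes. In All-Hypo cells they were Irx1 with TREAT on embryos (0.075) or libraries (0.15) and with litters as samples (0.052), Irx5 with sex as covariate (0.13), Irx6 with TREAT on embryos (-0.11), and Zic2 with library size alone (0.032), TREAT on embryos (0.021) or libraries (0.039), sex as covariate (0.011), all cells (0.060), named clusters only (0.0024), without the Gbx2-led cluster (0.44) and without it and Eed-cKO embryo 8 (0.37). With an embryo left out, Irx1 ranged from -0.20 to 0.18, Irx5 from -0.16 to 0.080, Irx6 from -0.016 to 0.23 and Zic2 from -0.17 to 0.16. No paired analysis was possible because replicate numbers shared by the groups only name libraries in accession order and pair none of them, and no litter held embryos of both groups.

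Depth limits the Irx genes: each had 114 to 636 UMIs per genotype over all All-Hypo cells, and Zic5 had 13 and 6.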
